A study of Mus musculus with 22 samples.

Results

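Cells with *Tagln* and *Acta2* transcripts were examined in CosMx spatial molecular imaging data from sections of 2 mouse embryos at E10. A cell was taken when it had at least 50 counts, when *Tagln* and *Acta2* together had at least 4 counts and at least 10 per 1000 of its counts, when each of them had at least 1 count, and when *Cdh5* had fewer than 3. This gave 629 Tagln+Acta2+ cells out of 37575 segmented cells, of which 30353 had at least 50 counts. The cells were thus selected on the measured counts of these 3 genes, which are given as a description and were not tested.

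CosMx counts single RNA molecules in tissue through probes that are read over rounds of fluorescence imaging, and assigns each molecule to the segmented cell that contains it. The labels give 13 sections of 1 embryo as knockout and 9 sections of 1 embryo as wildtype, each 10 µm thick, with no treatment. These genotypes are *Nr4a1*-/-*Nr4a2*-/- and *Nr4a1*+/+*Nr4a2*+/+ by the methods of the study, and these names are used below for the labels. The germline mutant lines were backcrossed to C57BL/6J, and the sections on a slide ran along the aorta-gonads-mesonephros (AGM) region, where the first blood stem cells emerge. With 1 embryo per genotype, and with no slide holding both genotypes, a difference of genotype, embryo or slide cannot be told apart, and a p-value between the genotypes measures only the spread between sections. Between 169038 and 887904 counts were recorded in a section. No cell name or field of view was found in more than 1 section of a slide, and no cell had the same counts as a cell of another section.

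Smooth muscle cells contract through actin and a smooth-muscle form of myosin, and they wrap large vessels, the gut and the airways. In the embryo they differentiate from mesenchyme, and around the dorsal aorta they form from cells recruited to the endothelial tube. *Tagln* encodes transgelin and *Acta2* encodes smooth muscle α-actin. Both are early markers of smooth muscle, but the early embryonic heart and skeletal muscle also express them, and only the smooth muscle myosin heavy chain, *Myh11*, is largely restricted to the smooth muscle lineage.

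The deposited panel includes the targeted genes, which were examined first. In the Tagln+Acta2+ cells, *Nr4a1* had 65 counts in all. Its level was between 0 and 0.383 per 1000 counts (median 0.196) over the 12 tested sections with the *Nr4a1*-/-*Nr4a2*-/- label, and between 0 and 0.592 (median 0.186) over 8 *Nr4a1*+/+*Nr4a2*+/+ sections. *Nr4a2* had levels from 0 to 1.24 (median 0.342) and from 0 to 0.571 (median 0.213) in the same sections. The ranges overlapped for both genes, and neither had enough counts to enter the test between the genotypes. In the other cells, which had 2345 counts of *Nr4a1* and 4146 of *Nr4a2*, both were tested and neither was called, with log2 fold changes of -0.09 (edgeR adjusted p = 0.530) and 0.03 (edgeR adjusted p = 0.889). The position of the probes relative to the deleted parts is not given in the sources used here, so these values do not check the labels, and the sections are named by their label.

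The promoters of 2 contractile genes are shown because serum response factor, a regulator of smooth muscle genes, binds the CArG box, which is CC, 6 bases of A or T, and GG, and reads the same way on both strands. Of the 11 contractile genes listed, *Tagln* and *Acta2*, 8 had a promoter in the RefSeq table (build GRCm38.p6), in 11 entries. Each sequence holds the 250 bases before the transcription start, 5′ to 3′. The capitals mark CArG boxes and CArG-like boxes in which 1 of the 6 central bases is G or C, a form that was added to the search after the sequences were seen. *Acta2* lies on the minus strand at chr19:34255374-34255623, and *Myl9*, the regulatory light chain of smooth muscle myosin, on the plus strand at chr2:156775214-156775463.
Acta2: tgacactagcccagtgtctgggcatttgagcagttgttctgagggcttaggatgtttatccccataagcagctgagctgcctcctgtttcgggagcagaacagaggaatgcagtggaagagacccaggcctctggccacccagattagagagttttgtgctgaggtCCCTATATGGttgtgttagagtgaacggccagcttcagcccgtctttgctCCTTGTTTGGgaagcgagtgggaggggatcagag
Myl9: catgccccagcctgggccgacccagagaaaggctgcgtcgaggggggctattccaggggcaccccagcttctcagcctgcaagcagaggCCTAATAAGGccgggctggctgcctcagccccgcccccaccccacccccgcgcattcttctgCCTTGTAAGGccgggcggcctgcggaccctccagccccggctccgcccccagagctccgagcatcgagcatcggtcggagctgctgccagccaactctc

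The strict CArG box was found in 1 of the 11 promoter entries, that of *Myl9*, and in 1.47% of all 32851 promoter entries of the same length. With 1 central mismatch allowed, a box was found in 5 of the 11 entries and in 8.59% of all entries. A match is a description of these letters and not a site of binding.

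The Tagln+Acta2+ cells made up 2.07% of the cells with at least 50 counts (Wilson 95% interval 1.92% to 2.24%), and the intervals given here cover counting error only. They held 26.9% of all *Tagln* counts and 27.8% of all *Acta2* counts in those cells. *Tagln* had between 1 and 18 counts in a Tagln+Acta2+ cell (median 3) and *Acta2* between 1 and 31 (median 5). Elsewhere, 13.3% of the other cells had a *Tagln* count and 19.1% had an *Acta2* count. The endothelial comparison cells, which were chosen to have at least 3 *Cdh5* counts and fewer than 4 counts of *Tagln* and *Acta2* together, had these transcripts in 18.3% and 26.0% of 1572 cells, so single counts of both genes were found widely.

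Many cells lay close to the limits. Exactly 4 counts of *Tagln* and *Acta2* together were found in 105 of the Tagln+Acta2+ cells, and 92 cells lay between 10 and 12 per 1000. Just outside, 83 cells had 3 counts and 103 cells lay between 8 and 10 per 1000 while they met the other limits. *Cdh5*, the cadherin of endothelial cells, had no count in 423 of the Tagln+Acta2+ cells, 1 count in 133 and 2 in 73. A further 140 cells were left out only because they had 3 or more *Cdh5* counts. The Tagln+Acta2+ cells were also deeper than the rest, with a median of 428 counts against 263. When the 25563 cells with at least 100 counts were thinned to 100, 112 cells met the rule. Of these, 101 were among the 618 Tagln+Acta2+ cells that entered. At 100 counts the minimum of 4 counts asks for a higher share than 10 per 1000, so a fall was fixed by the rule.

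The share of Tagln+Acta2+ cells differed widely between sections of the same embryo. It ranged from 0.665% to 5.51% (median 2.02%, n = 13) over the sections with the *Nr4a1*-/-*Nr4a2*-/- label, and from 0.674% to 6.39% (median 1.10%, n = 9) over those of the *Nr4a1*+/+*Nr4a2*+/+ embryo. The ranges overlapped almost completely. Section 17 held 5 such cells and section 4 held 9, and section 11 held 80. The cells were also gathered in space: of 50 imaged fields of view, 7 held none, while the 2 fullest, in sections 11 and 21, held 63 each, or 20.03% of all of them together.

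**Figure D1:**
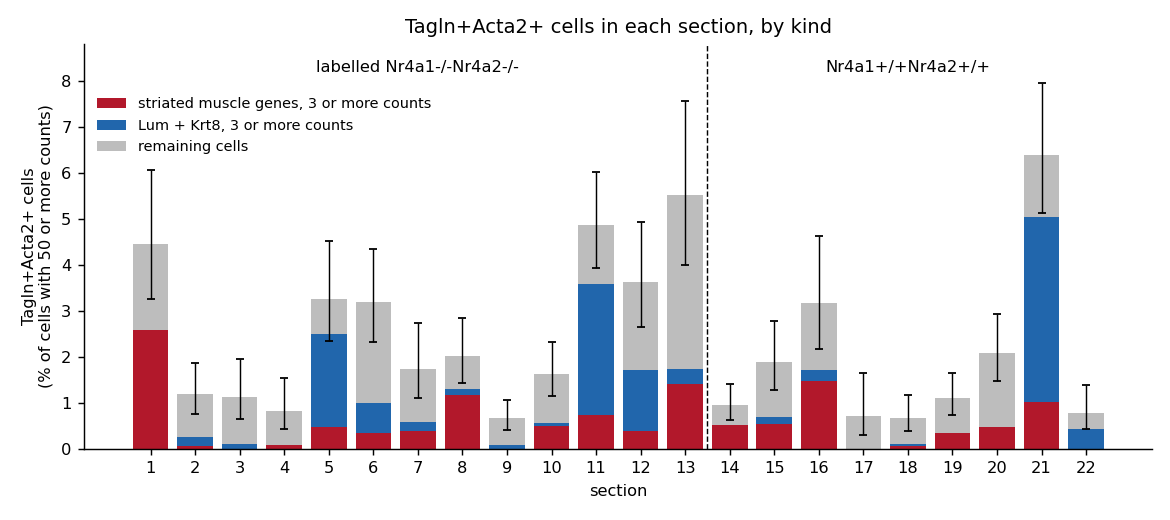
The share of Tagln+Acta2+ cells (y axis, % of cells with 50 or more counts) is plotted for each of the 22 sections (x axis), with bars divided by the genes that the cells also held and error lines for the Wilson 95% interval of the whole share. Section 21 has the tallest bar, at 6.39%, and the red and blue parts vary strongly between sections of both embryos.

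To ask whether the cells were smooth muscle, they were divided by other muscle genes. At least 3 counts over *Myl7*, *Myh6*, *Tnnc1* and *Ttn*, which encode parts of the contractile apparatus of cardiac or skeletal muscle, were found in 148 of the 629 cells, or 23.5% (Wilson 95% interval 20.4% to 27.0%). The share was 8.81% in the other cells and 12.9% in the endothelial comparison cells (median 450 counts), which should lack these genes. After thinning to 100 counts it was 5.99% of the Tagln+Acta2+ cells, 0.722% of the other cells and 0.389% of the endothelial comparison cells. These cells made up 57.9% of the Tagln+Acta2+ cells in section 1, 58.1% in section 8, 54.2% in section 14 and 46.2% in section 16, and none in sections 3, 9, 17 and 22.

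Genes that were not used for this division set the striated cells apart as well. *Tpm2*, which encodes β-tropomyosin, had 39.5 per 1000 counts in them and 7.87 in the remaining Tagln+Acta2+ cells. *Myl4*, the atrial and embryonic myosin light chain, had 2.93 and 0.424 per 1000, and *Cdkn1a*, an inhibitor of the cell cycle that rises when skeletal muscle precursors stop dividing, had 6.29 and 0.641. *Myh11* had 0.410 per 1000 in the striated cells, against 0.419 in the cells that did not meet the rule.

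A second kind of cell was seen after the values had been examined. Among the cells without the striated genes, 161 (25.6% of the Tagln+Acta2+ cells) had at least 3 counts of *Lum*, a collagen-binding proteoglycan, and *Krt8*, a keratin of simple epithelia and mesothelium, together. *Krt18*, the partner of *Krt8* in the same filaments, had 2.83 per 1000 in them and 0.763 in the other Tagln+Acta2+ cells. *Col1a1*, the main chain of type I collagen, had 53.9 and 14.8 per 1000, and *Actg2*, the smooth muscle γ-actin of the gut wall, had 2.32 and 1.10. *Epcam*, a membrane protein of most epithelia, was at 0.126 per 1000, below the 0.289 of the cells outside the rule. In sections 5, 11, 21 and 22 such cells made up the majority of the Tagln+Acta2+ cells, up to 62.7%. Section 22 had 6 of them among 11 Tagln+Acta2+ cells, and 1 field in section 11 and 1 in section 21 held 46 each. The share of the other cells with at least 3 counts of *Lum* and *Krt8* was not measured, nor was the share after thinning.

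The remaining 320 cells (50.9%) were found in every section. These cells had a median of 362.5 counts, against 523 in the striated cells and 520 in the cells with *Lum* and *Krt8*. They had 0.789 per 1000 *Myh11* counts, 1.43 of *Carmn*, a long noncoding RNA of smooth muscle, and 3.11 of *Myl9*. *Foxc2*, a forkhead factor of the mesenchyme around vessels, had 1.73 per 1000 in them and 0.582 in the other Tagln+Acta2+ cells, and *Cxcl12*, a chemokine of stromal cells, had 4.56 and 1.59. *Hey1*, a target of Notch signaling, had 0.897 and 0.365, and *Cspg4*, the NG2 proteoglycan of pericytes, 0.864 and 0.353. *Hba-a1/2*, the α-globin of red cells, was also higher in them, at 15.2 against 5.64 per 1000, although 20.9 was the level of the cells outside the rule. *Srgn* had 1.15 and 0.535 per 1000, and *Lair1* 0.706 and 0.347. The 13 listed blood and macrophage genes, *Hba-a1/2* among them, summed to 21.2 per 1000 in these cells. The sum was 8.51 in the striated cells and 13.2 in the cells with *Lum* and *Krt8*.

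**Figure D2:**
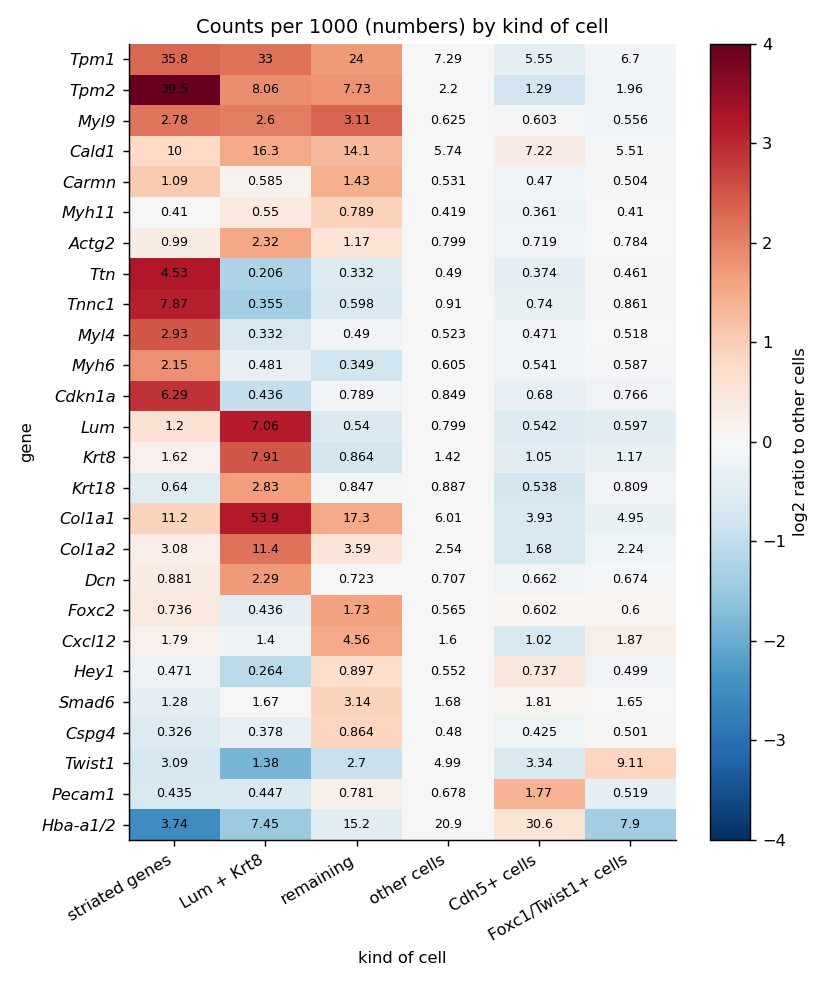
Counts per 1000 are printed for 26 genes (rows) in 3 kinds of Tagln+Acta2+ cells, in all other cells, in endothelial comparison cells and in mesenchymal comparison cells (at least 2 counts of *Foxc1* and *Twist1* together) (columns), with the colour giving the log2 ratio to the other cells. *Myl9* was raised in all 3 kinds, whereas *Ttn* and *Tnnc1* stood out in the striated cells and *Lum*, *Krt8* and *Col1a1* in the cells with *Lum* and *Krt8*.

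Markers of pericytes and of the splanchnic mesoderm did not mark the cells in the same way. At least 2 counts over *Pdgfrb*, *Rgs5*, *Notch3* and *Cspg4* were found in 33.9% of the Tagln+Acta2+ cells and in 20.6% of the other cells, but after thinning to 100 counts in 3.72% and 3.68%. A count of *Foxf1*, the forkhead factor of the gut and lung mesenchyme, was found in 16.2% and 11.8%, and after thinning in 4.69% and 4.90%. At equal depth, the shares of both kinds were at the level of the background.

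The other 995 genes of the panel were then compared between the Tagln+Acta2+ cells and all other cells with at least 50 counts, by summing the counts of each kind of cell in each section. The 20 sections with at least 10 Tagln+Acta2+ cells entered. In edgeR's quasi-likelihood test with section as a block and Benjamini-Hochberg adjustment, 114 genes (11.5%) had an adjusted p under 0.05, of which 79 (7.94%) were higher and 35 (3.52%) lower in the Tagln+Acta2+ cells. When the counts were scaled by library size alone, 56 were higher and 202 lower, and the median over all 995 log2 fold changes moved from -0.05 to -0.23. Directions below are relative to the scaling by TMM factors.

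Contractile genes stood highest. Of 11 listed genes, 8 were higher and none lower, where 7.94% and 3.52% of all genes were. Their median log2 fold change was 1.02, against -0.05 over all genes tested. *Tpm1*, which encodes α-tropomyosin, had between 17.4 and 41.7 per 1000 counts (median 28.2) in the Tagln+Acta2+ cells of a section and between 4.98 and 10.9 (median 7.50) in the other cells. The groups did not overlap, with a log2 fold change of 1.98 (standard error 0.10, edgeR adjusted p = 1.53e-31). *Myl9* had between 1.12 and 4.53 per 1000 (median 2.80) against 0.477 to 0.791 (median 0.630), also without overlap. Its log2 fold change reached 2.28 (standard error 0.11, edgeR adjusted p = 2.11e-32).

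*Tpm2* changed most of all named genes, by a log2 fold change of 2.73 (standard error 0.21, edgeR adjusted p = 1.77e-09), with levels from 5.10 to 52.4 per 1000 (median 11.1) against 1.60 to 4.20 (median 2.11). Its highest level was in section 1, where striated cells made up 57.9% of the Tagln+Acta2+ cells. Over the alternative settings, the log2 fold change of *Tpm2* was between 1.77 and 3.15 and that of *Myl9* between 1.93 and 2.69. *Tpm2* was thus not first in every setting. *Cald1*, which encodes the actin-binding protein caldesmon, had between 8.66 and 18.7 per 1000 (median 13.5) against 3.45 to 7.37 (median 5.64), and rose in all 20 sections. *Carmn* was also higher in all 20 sections, with a median of 1.28 per 1000 against 0.545. Both rose, with log2 fold changes of 1.32 (standard error 0.09) and 1.30 (standard error 0.13).

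The markers most specific to mature smooth muscle were low. *Myh11* had between 0.229 and 1.46 per 1000 (median 0.625) in the Tagln+Acta2+ cells and between 0.288 and 0.563 (median 0.414) in the other cells. The groups overlapped, but *Myh11* was higher in 15 of 20 sections, with a log2 fold change of 0.78 (standard error 0.16, edgeR adjusted p = 8.88e-05). This call was lost among cells of 150 to 400 counts (0.11, edgeR adjusted p = 0.917), with the stricter rule, on the slides numbered 2 and in the *Nr4a1*+/+*Nr4a2*+/+ sections alone (0.50, edgeR adjusted p = 0.346). *Actg2* was higher in 11 of 20 sections and reached 4.71 per 1000 in section 21 against a median of 0.898, with a log2 fold change of 0.62 (standard error 0.17, edgeR adjusted p = 0.0138). It was not called without the 4 sections rich in cells with *Lum* and *Krt8* (0.26, edgeR adjusted p = 0.371), among cells of 150 to 400 counts, on the slides numbered 2 or in the *Nr4a1*+/+*Nr4a2*+/+ sections alone. The nonmuscle and smooth muscle light chain *Myl12a* rose by 1.02 on the log2 scale, while *Myl12b* (-0.02) and the calcium channel *Cacna1c* (-0.10) did not pass the test.

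Of 8 genes of cardiac or skeletal muscle, 3 were higher, where 7.94% of all genes were. *Ttn*, which encodes the giant sarcomere protein titin, had between 0.129 and 5.89 per 1000 (median 0.709) against 0.325 to 0.648 (median 0.449), with a log2 fold change of 1.60 (standard error 0.34, edgeR adjusted p = 0.00208). *Tnnc1*, the troponin C of heart and slow muscle, had a log2 fold change of 1.45 (standard error 0.28, edgeR adjusted p = 0.000900). Neither was called on the slides numbered 1 or in the sections labelled *Nr4a1*-/-*Nr4a2*-/- alone, and *Tnnc1* was not called with the stricter rule. Both genes were used to select the 148 striated cells, so without these cells, and with the other cells unchanged, lower values were fixed by the selection and were not read as a test. *Ankrd1*, a stress-responsive protein of heart muscle, rose by 1.07 on the log2 scale and was not called on the slides numbered 1 alone. *Myh6* (0.40), *Myl7* (0.26), *Tcap* (0.19), *Ryr2* (0.16) and *Mb* (-0.34) did not pass the test.

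Among 6 mural and pericyte genes, 3 were higher and 1 lower, where 7.94% and 3.52% of all genes were. *Pdgfrb*, the receptor that recruits pericytes and smooth muscle, had between 0.481 and 2.21 per 1000 (median 1.28) against 0.684 to 1.40 (median 0.977), with a log2 fold change of 0.57 (standard error 0.12, edgeR adjusted p = 0.000136). *Rgs5*, a regulator of G protein signaling in pericytes, had 0.67 (standard error 0.17), and *Cspg4* had 0.47 (standard error 0.16). *Rgs5* was not called with the stricter rule, on the slides numbered 2 or in either embryo alone, and *Pdgfrb* was not called on the slides numbered 2. *Cspg4* was not called with library size alone (0.29, edgeR adjusted p = 0.161), with the stricter rule, among cells of 150 to 400 counts, in either embryo or set of slides alone, or without section 6, 7, 10, 16 or 22. Among cells of 150 to 400 counts, the log2 fold changes of *Pdgfrb* and *Rgs5* were -0.03 and -0.19, with adjusted p of 0.976 and 0.887 in edgeR's test. *Itga8*, an integrin chain of mesenchyme, fell by 0.48 on the log2 scale, but this call was lost with the stricter and the looser rule, on either set of slides and without section 1, 6, 8, 11, 15, 16, 19 or 20 alone. *Notch3* (0.13) and *Angpt1* (-0.07) did not pass. Of 3 genes of the splanchnic mesoderm, *Bmp4* rose by 0.49, a call that was lost with library size alone, among cells of 150 to 400 counts (0.085, edgeR adjusted p = 0.913), on either set of slides and in the *Nr4a1*+/+*Nr4a2*+/+ sections alone, while *Foxf1* (-0.09) and *Wnt5a* (-0.02) did not pass the test.

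Genes of the extracellular matrix formed the other large group. Of 37 listed genes, 21 were higher and none lower, where 7.94% and 3.52% of all genes were, with a median log2 fold change of 0.52 against -0.05 over all genes tested. *Col1a1* had between 5.81 and 111 per 1000 counts (median 18.1) in the Tagln+Acta2+ cells and between 2.08 and 16.1 (median 4.85) in the other cells. It was higher in all 20 sections, with a log2 fold change of 1.91 (standard error 0.14, edgeR adjusted p = 1.84e-12). *Fn1*, which encodes fibronectin, had 2.47 to 9.69 per 1000 (median 5.12) against 1.44 to 2.55 (median 1.89), with a log2 fold change of 1.57 (standard error 0.10, edgeR adjusted p = 8.42e-24). The fibrillar collagen *Col3a1* (1.61), the matrix glycoprotein *Sparc* (1.32) and the basement membrane collagen *Col4a1* (1.26) rose as well.

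Other genes with a large rise included *Vim*, the intermediate filament of mesenchyme, at 1.39, the lectin *Lgals1* at 1.54 and the membrane-binding protein *Anxa2* at 1.35 on the log2 scale, each higher in all 20 sections. Of 8 genes in the list of the insulin-like growth factor axis, which includes *Meg3*, 4 rose, where 7.94% of all genes did. *Igf2*, a fetal growth factor, had 20.3 to 38.9 per 1000 (median 30.3) against 12.8 to 23.5 (median 17.4), a log2 fold change of 0.96 (standard error 0.10). *Igf2r*, the receptor that clears it, rose by 0.95, and the noncoding RNA *Meg3* by 1.06, although *Meg3* was not called on the slides numbered 1 alone (1.095, edgeR adjusted p = 0.0647).

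Of 16 listed genes of proliferation, 6 were lower, 10 did not pass the test and none was higher, with a median log2 fold change of -0.26, where 3.52% of all genes were called lower. *Hmgb2*, a chromatin protein of dividing cells, had 11.5 to 27.6 per 1000 (median 17.6) against 16.9 to 36.6 (median 25.6), and was lower in all 20 sections. *Mki67*, the marker of cycling cells, fell by 0.50 on the log2 scale (standard error 0.11), and *Ccnd1*, which encodes cyclin D1, by 0.58 (standard error 0.12). Both were lower in 19 of 20 sections. In the *Nr4a1*+/+*Nr4a2*+/+ sections alone, *Hmgb2* (-0.38, edgeR adjusted p = 0.144), *Mki67* (-0.29, edgeR adjusted p = 0.562) and *Ccnd1* (-0.44, edgeR adjusted p = 0.343) were not called, with the stricter rule *Hmgb2* and *Mki67* were not, and on the slides numbered 1 *Ccnd1* was not.

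Markers of other cell types were mostly at or below the level of the other cells. Of 16 endothelial genes, *Vwf* (6.25% of the list, against 7.94% of all genes) rose by 0.41 and the others did not pass. The call for *Vwf* was lost with library size alone (0.23, edgeR adjusted p = 0.198) and without section 2, 3, 7, 10 or 15 alone. It was also lost with the stricter rule, among cells of 150 to 400 counts, on the slides numbered 2 and in either embryo alone. The summed level of these genes was between 7.04 and 15.4 per 1000 in the Tagln+Acta2+ cells of a section, between 9.85 and 14.6 in the other cells and between 20.6 and 37.7 in the endothelial comparison cells. Of 13 blood and macrophage genes, *Hba-a1/2* fell by 1.17 and *Hbb* by 0.57 on the log2 scale, and none rose, where 3.52% of all genes were called lower. The *Nr4a1*+/+*Nr4a2*+/+ sections alone gave -0.14 (edgeR adjusted p = 0.821) for *Hba-a1/2* and -0.53 (edgeR adjusted p = 0.217) for *Hbb*. The sections of the other embryo alone gave -1.93 (edgeR adjusted p = 0.00184) and -0.58 (edgeR adjusted p = 0.00902), and the difference between the embryos did not pass the interaction test for *Hba-a1/2* (edgeR adjusted p = 0.173) or *Hbb* (edgeR adjusted p = 0.997). Among 10 mesenchymal factors, *Foxc2* rose by 1.05 and *Snai2* by 0.55, whereas *Twist1*, a factor of the undifferentiated mesenchyme, fell by 0.79 (standard error 0.11, edgeR adjusted p = 4.25e-09) and *Pdgfra* by 0.33. Of all genes, 7.94% rose and 3.52% fell. The call for *Snai2* was lost with library size alone, with the stricter rule, on the slides numbered 1 and in either embryo alone. It was also lost among cells of 150 to 400 counts, without the cells with *Lum* and *Krt8* and without the sections rich in them. That for *Foxc2* was lost with the stricter rule and among cells of 150 to 400 counts. That for *Pdgfra* was lost with the stricter and the looser rule, on either set of slides and without section 1, 3, 6, 8, 9, 15, 18, 19, 20 or 21 alone. *Sox2*, a factor of the neural tube, fell by 1.02, but it was not called in the *Nr4a1*+/+*Nr4a2*+/+ sections alone (-0.34, edgeR adjusted p = 0.791), on the slides numbered 1 or among cells of 150 to 400 counts. None of these lists had a gene at 0 in the Tagln+Acta2+ cells, and the part of misassigned transcripts was not tested.

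Among 20 adhesion genes, 4 rose and 1 fell, where 7.94% and 3.52% of all genes did. *Itgb1*, the integrin chain shared by most matrix receptors, rose by 0.93 on the log2 scale, the cadherin *Cdh11* by 0.69 and the integrin chain *Itga9* by 0.58. *Itga9* was not called with the stricter rule, among cells of 150 to 400 counts, on either set of slides or in the *Nr4a1*+/+*Nr4a2*+/+ sections alone. The call for *Cdh11* was lost with the stricter rule and on the slides numbered 2, and that for *Itgb1* among cells of 150 to 400 counts. Of 15 immediate-early and stress genes, *Jun* rose by 0.67 and *Hspb1*, a small heat shock protein of muscle, by 0.61. Without the striated cells, *Hspb1* had a log2 fold change of -0.034 (edgeR adjusted p = 0.927). Its call was also lost among cells of 150 to 400 counts, on the slides numbered 1 and in either embryo alone. That for *Jun* was lost among cells of 150 to 400 counts. Of 7 epithelial genes, *Krt19* rose by 0.52, a call that was lost with library size alone, in either embryo or set of slides alone, and without the cells with *Lum* and *Krt8* (0.34, edgeR adjusted p = 0.214), while *Krt8* (0.56) and *Epcam* (-0.53) did not pass the test. Other genes that fell included the secreted factors *Vegfa* (-0.60) and *Shh* (-0.68), the Wnt receptor *Fzd3* (-0.60), *Plac9* (-0.61), *Lcn2* (-0.64), *Chil1* (-0.52) and *Dusp2* (-0.54), each lower in at least 18 of 20 sections. None of these 7 was called with the stricter rule or in the *Nr4a1*+/+*Nr4a2*+/+ sections alone, and *Shh* and *Fzd3* were not called with the looser rule. The call for *Dusp2* was also lost with DESeq2 (adjusted p = 0.0540) and without any 1 of 15 of the 20 sections, all but sections 1, 2, 12, 14 and 21.

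Of 24 genes of the TGFβ and BMP pathways, 5 rose, among them the activin receptor *Acvr2a* (0.64), the inhibitor *Smad6* (0.53) and *Bmp4*. *Acvr2a* was not called without the striated cells (0.17, edgeR adjusted p = 0.710), with the stricter rule, among cells of 150 to 400 counts, on the slides numbered 2 or in the *Nr4a1*+/+*Nr4a2*+/+ sections alone. Of 13 genes of the Notch pathway none passed. The highest and lowest values were 0.35 for *Hes1* and -0.35 for *Hes5*. Of 6 PDGF genes, *Pdgfrb* rose and *Pdgfra* fell, and *Pdgfd* (0.28) did not pass the test. Over all 995 genes, 7.94% were called higher, against 20.8% of the TGFβ and BMP list.

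**Figure D3:**
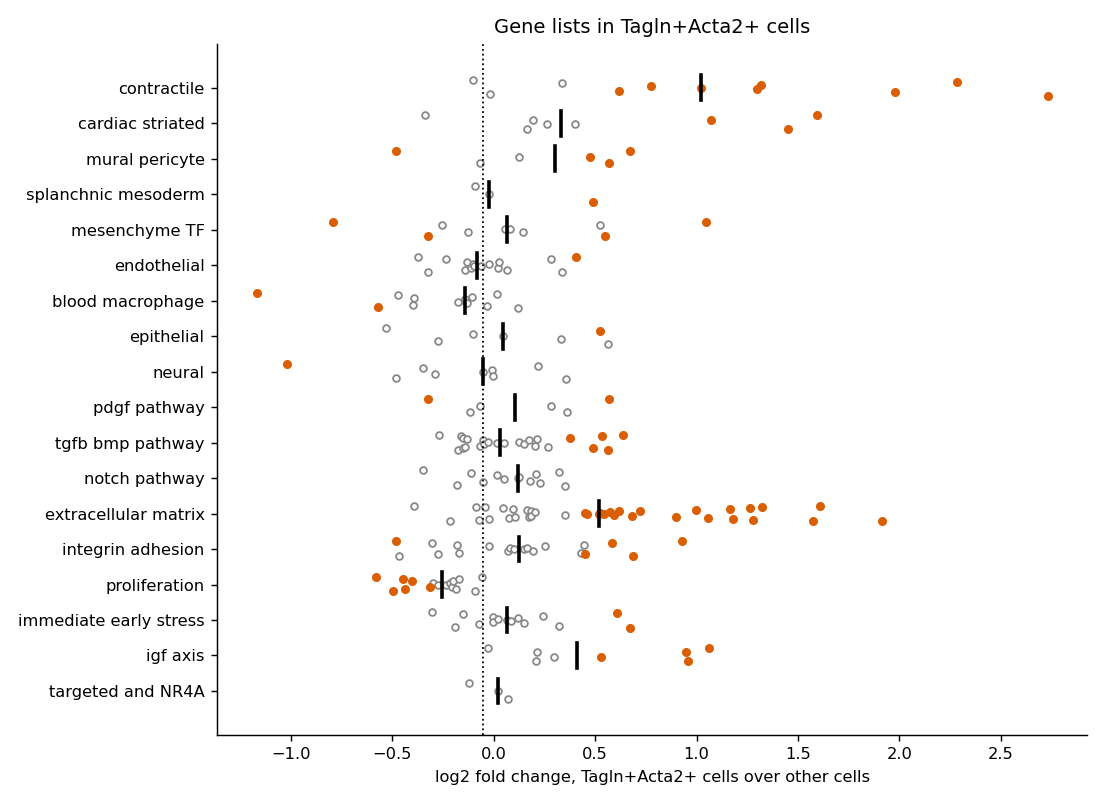
Each point is a gene of the list on the y axis, at its log2 fold change between Tagln+Acta2+ cells and other cells (x axis). Filled points have an adjusted p under 0.05 in edgeR's test, thick bars give the median of a list, and the dotted line gives the median of all genes tested, at -0.05. The contractile list reaches 2.73 and the matrix list 1.91, while most points of the endothelial and Notch lists lie near the dotted line.

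The Tagln+Acta2+ cells were then compared between the genotypes in the labels. The 12 sections labelled *Nr4a1*-/-*Nr4a2*-/- and 8 *Nr4a1*+/+*Nr4a2*+/+ sections left 276 genes with enough counts to test. Of these, 6 (2.17%) were higher in the sections labelled *Nr4a1*-/-*Nr4a2*-/- and none lower at an adjusted p under 0.05 in edgeR's test, and 38 had an unadjusted p under 0.05. DESeq2 called 9 genes higher and 2 lower, and limma voom with slide as a random block called 7 higher and 1 lower. None of the 9 contractile genes tested was among them, nor any of the 22 matrix genes. *Tpm1* had a log2 fold change of 0.33 (edgeR adjusted p = 0.345) and *Myl9* of 0.41 (edgeR adjusted p = 0.345).

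Counts of the 6 genes were found in between 52.1% (*Btf3*) and 97.3% (*Hmgb2*) of the Tagln+Acta2+ cells. *Hsp90ab1*, which encodes a constitutive heat shock protein, had between 15.7 and 26.1 per 1000 counts (median 18.98) per section with the *Nr4a1*-/-*Nr4a2*-/- label and between 9.43 and 13.2 (median 11.04) in the *Nr4a1*+/+*Nr4a2*+/+ sections. The groups did not overlap, and the log2 fold change was 0.77 (standard error 0.14, edgeR adjusted p = 0.00102). *Btf3*, which encodes a factor that binds nascent proteins, had 1.79 to 3.01 (median 2.42) against 0.931 to 2.00 (median 1.12), and its log2 fold change was 0.93 (standard error 0.18, edgeR adjusted p = 0.00221). The tubulin *Tubb5* rose by 0.84, the microtubule regulator *Stmn1* by 0.82, *Vim* by 0.71 and *Hmgb2* by 0.55. The call for *Hmgb2* was lost without section 5, 9, 12, 15, 16 or 18 alone, and that for *Vim* without section 19 alone.

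These differences were not restricted to the Tagln+Acta2+ cells. In the other cells of the same sections, 98 of 995 genes (9.85%) differed between the genotypes, and all 6 genes were among the 82 (8.24%) that were higher. Their log2 fold changes there were 1.22 for *Hsp90ab1*, 1.06 for *Btf3*, 1.03 for *Vim*, 0.94 for *Tubb5*, 0.84 for *Stmn1* and 0.75 for *Hmgb2*. The test of the difference between both kinds of cells did not pass for any of the 6. On the slides numbered 1 alone, with 6 and 3 sections, none of the 6 was called in the Tagln+Acta2+ cells. On the slides numbered 2 alone, 8 genes were called, among them 4 of the 6, without *Hmgb2* and *Vim*. Without the striated cells, *Hmgb2* and *Tubb5* were not called. Among cells of 150 to 400 counts, 69 genes could be tested, of which *Btf3* was not one, and the other 5 were not called.

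**Figure D4:**
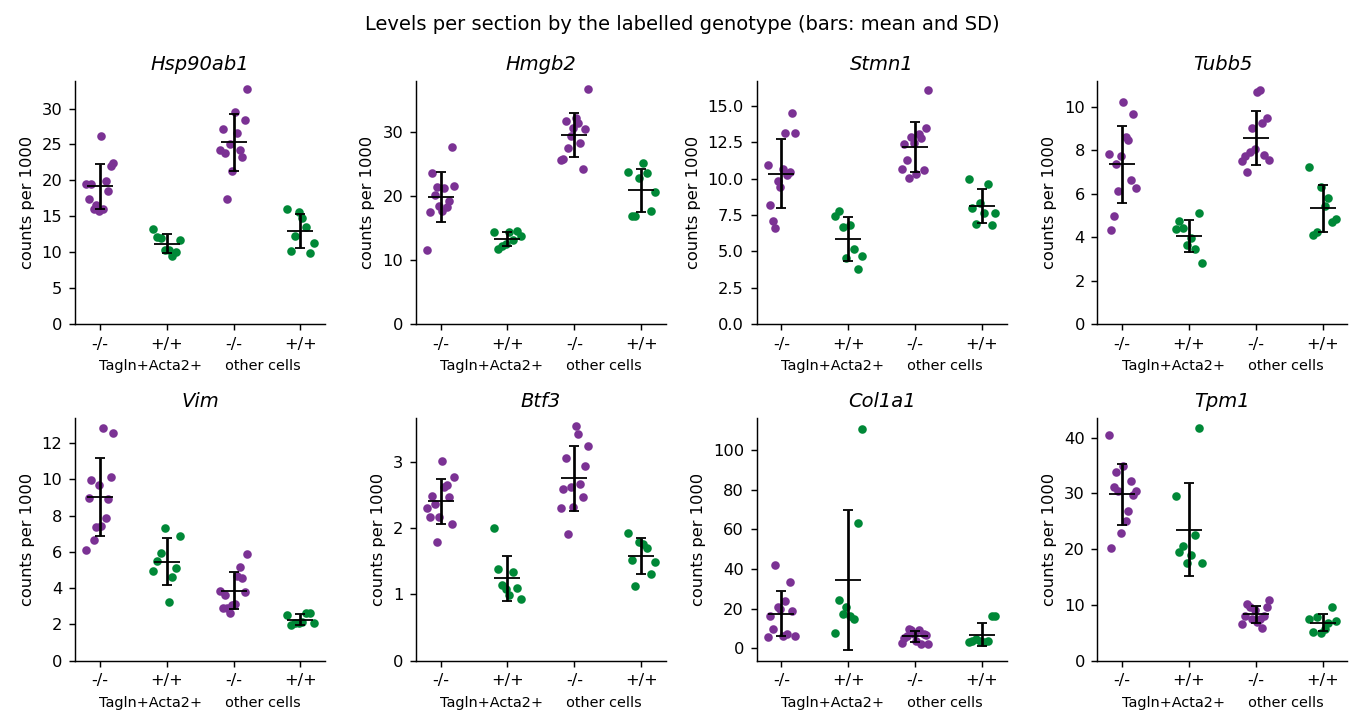
Counts per 1000 (y axis) are plotted for each section in Tagln+Acta2+ cells and in other cells (x axis), for sections labelled *Nr4a1*-/-*Nr4a2*-/- (purple) and *Nr4a1*+/+*Nr4a2*+/+ sections (green), with the mean and SD. *Hsp90ab1* separates the genotypes without overlap in both kinds of cells, whereas *Tpm1* and *Col1a1* overlap in the Tagln+Acta2+ cells.

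Only *Col1a1* differed between the genotypes in how far the Tagln+Acta2+ cells stood above the other cells (1 of 995 genes, or 0.101%, in edgeR's test of the interaction, and 40 at an unadjusted p under 0.05). In the Tagln+Acta2+ cells it had between 5.81 and 42.1 per 1000 (median 17.5) per section with the *Nr4a1*-/-*Nr4a2*-/- label and between 7.90 and 111 (median 19.1) in the *Nr4a1*+/+*Nr4a2*+/+ sections. The ranges overlapped, and the highest levels were in sections 21 and 22, where cells with *Lum* and *Krt8* made up most of the Tagln+Acta2+ cells. In the other cells, *Col1a1* had between 2.08 and 9.61 per 1000 per section with the *Nr4a1*-/-*Nr4a2*-/- label. The *Nr4a1*+/+*Nr4a2*+/+ sections had 16.1 in sections 21 and 22 and between 3.26 and 4.63 elsewhere. The interaction thus takes in differences in both kinds of cells. The interaction was -0.88 on the log2 scale (standard error 0.20, edgeR adjusted p = 0.0199). It was -0.93 (edgeR adjusted p = 0.0110) without the 4 sections rich in cells with *Lum* and *Krt8*, and -0.77 (edgeR adjusted p = 0.188) without section 22 alone. The call was also lost without section 6, 7, 8, 9, 15 or 18 alone, with values between -0.88 and -0.81. Within the slides numbered 1 and those numbered 2 it was -0.77 and -0.93, with edgeR adjusted p of 0.945 and 0.319.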

How the data were processed

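The authors imaged fresh frozen sections, segmented the cells and deposited, for each of 22 sections, the count of each of 998 genes in each cell as whole numbers without normalization; Seurat is named in the submitters' processing notes. The total count of a Tagln+Acta2+ cell ranged from 51 to 1744, and the summed count of these cells in a section from 1687 to 44479. Some labels name paraffin embedding although the tissue was fresh frozen by the paper's methods, and the legend gives other numbers of sections than the labels, which were followed.

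Cells were chosen by the counts of *Tagln*, *Acta2* and *Cdh5*, and these 3 genes were left out of tests and library sizes. Counts were summed per section, with at least 10 cells of the kind, and tested in edgeR 4.0.16 (limma 3.58.1, R 4.3.3) by a robust quasi-likelihood fit, after filterByExpr and TMM scaling, with p-values adjusted by the Benjamini-Hochberg method and a threshold of 0.05. Section was a block between kinds of cells. Slide numbers, 1 and 2 for each genotype, were read from the deposited names. Levels per 1000 are counts over the summed counts without these 3 genes. Shares were described with Wilson intervals with scipy 1.17.1 in Python 3.11.15. The fits were tested on simulated data. Members, gene lists and tests were chosen with earlier results of these data known.

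Genes were named by a rule: the 3 genes of the cell rule, *Nr4a1*, *Nr4a2* and *Nr4a3*, all genes of the contractile, striated, mural and splanchnic lists, the 15 largest rises and 10 largest falls with at least 100 counts and the same direction in at least 18 sections, the 8 largest changes each way between genotypes, the 10 lowest adjusted p of the interaction, and 3 genes of each other list. Genes named for the kinds of Tagln+Acta2+ cells were chosen after their values were seen, and 2 genes are not reported here. Alternatives were DESeq2 1.42.0, library size alone, no filter on low counts, stricter and looser limits of the rule, cells of 150 to 400 counts, other sets of cells, slides and sections, limma voom with slide as a random block, and leaving out each section.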

Additional observations from a re-analysis of the deposited data

Results flagged for a closer look

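The share of Tagln+Acta2+ cells in section 21 of the *Nr4a1*+/+*Nr4a2*+/+ embryo, 6.39%, lay apart from the other 8 sections of this embryo. Of 101 measures over these sections, 13 had a section that stood apart by Dixon's criterion, where chance gives about 5.05. In the Tagln+Acta2+ cells of section 21, *Acta2* had 20.96 per 1000 counts, *Actg2* 4.71 and *Myh6* 3.11. Section 22 stood apart for *Col5a1* (3.35 per 1000), *Cacna1c* (1.30) and *Shh* (1.30), and section 14 for *Ttn* (5.71) and *Btf3* (2.00). Section 15 stood apart for *Igf2r* (6.21) and *Itgb1* (3.19), and section 18 for *Mki67* (4.95) and for *Plac9*, which had 0 counts in its 12 Tagln+Acta2+ cells. The interaction of *Col1a1*, -0.88 on the log2 scale, differed between the embryos in edgeR's test.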

How the results depend on the processing

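The comparison of Tagln+Acta2+ cells with other cells called 114 genes. It called 258 with library size alone, 54 with the stricter rule (at least 6 counts and 20 per 1000), 61 among cells of 150 to 400 counts, 51 and 62 on the slides numbered 1 and those numbered 2, 48 in the *Nr4a1*+/+*Nr4a2*+/+ sections alone and 68 in the sections labelled *Nr4a1*-/-*Nr4a2*-/- alone, and between 103 and 118 without each section in turn. Of 60 genes called there and covered by the naming rule, 26 were not called in the *Nr4a1*+/+*Nr4a2*+/+ sections alone, 16 in the other embryo alone, 25 and 21 on the slides numbered 1 and those numbered 2, 27 among cells of 150 to 400 counts, 24 with the stricter rule, 4 with the looser rule, 5 with library size alone and 1 with DESeq2. Without the striated cells, the log2 fold changes of *Cdkn1a* (-0.20), *Hspb1* (-0.034) and *Myl4* (-0.12) changed sign, those of *Tnnc1* (-0.71) and *Ttn* (-0.58) did so because these cells were selected on them, and among cells of 150 to 400 counts those of *Pdgfrb* (-0.031) and *Rgs5* (-0.19) did. The cells entering differ by construction in the first case; the cause was not tested in the second. The comparison of the genotypes called 6 genes, and 11 with DESeq2 (9 higher, 2 lower), 2, both lower, with the stricter rule (8 sections against section 21 alone, which is assumed to vary like the others, so that lost calls say nothing about stability), 14 with the looser rule (at least 3 counts and 7 per 1000), 1 of 69 genes tested among cells of 150 to 400 counts, 1 on the slides numbered 1, 12 without the 4 sections rich in *Lum* and *Krt8* cells (10 higher, 2 lower; an alternative chosen after seeing the data), and 5 to 8 without each section. The interaction called 1 gene, 2 with DESeq2, 3 without the striated cells, 3 without the cells with *Lum* and *Krt8* (chosen after seeing the data), 0 with library size alone, the stricter rule (section 21 alone again), the looser rule or the slides numbered 1, and 0 to 2 without each section. The mean share of Tagln+Acta2+ cells in a section was 2.36%. After thinning the cells with at least 100 counts to 100, it was 0.489%. The minimum of 4 counts was kept, which fixed a fall in advance. The shares with *Foxf1* and with mural genes, which also rest on fixed minimum counts, fell to 4.69% and 3.72% after thinning. No paired analysis was possible because the replicate numbers only name sections in their order and the groups hold different embryos. Depth left 276 of 995 genes to test between the genotypes, and without the filter 9 were called, the 6 among them.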
